A study of Mus musculus with 2 samples.

Results

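The Hsd3b genes of the mouse encode 3-beta-hydroxysteroid dehydrogenases, and 7 of them (Hsd3b1 to Hsd3b7) are described here out of 55536 annotated genes measured in the adrenal gland. They were taken by gene symbol, with all 30 of their annotated transcripts out of 141767. Total RNA from the whole adrenal gland of 2 female mice of the F1 strain B6CASTF1/J, 18 to 20 months old and with no treatment named in the labels, was sequenced with 300 ng of RNA per library and ERCC spike-ins, synthetic RNAs added in known amounts. Each mouse gave 1 library, the 2 libraries make up the only group, and they are called animal 1 and animal 2 after their replicate numbers. The labels give both samples 1 shared donor identifier, and 1 field of animal 2 repeats the animal name of animal 1, while the other fields name different females and tissue samples. There is no second condition, so the values below are levels, their spread between 2 animals, and how far they depend on the quantification, with no test of a treatment.

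An enzyme of this family oxidises the 3-beta-hydroxyl group of a steroid and moves its double bond, which turns pregnenolone into progesterone and is needed for every corticosteroid and sex steroid. In the mouse Hsd3b1 is known as the form of adrenal cortex and gonads, Hsd3b6 as the form of the zona glomerulosa, the outer zone that makes aldosterone, and Hsd3b2, Hsd3b3 and Hsd3b5 mainly as forms of liver and kidney. Hsd3b4 and Hsd3b5 are counted as reductases of 3-ketosteroids. Hsd3b7 stands apart, since it acts on 7-alpha-hydroxylated sterols on the way to bile acids.

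The genes sit in 2 places of the mm10 assembly. Hsd3b1 to Hsd3b6 lie together on the minus strand of chromosome 3, within the 360724 bases of chr3:98499071-98859794, in the order Hsd3b4, Hsd3b5, Hsd3b2, Hsd3b3, Hsd3b6 and Hsd3b1 from the lowest coordinate. Hsd3b7 lies alone on the plus strand of chromosome 7 (chr7:127800604-127803802). The coding sequence holds 1119 bases in each of the 6 cluster members and 1107 bases in Hsd3b7, the stop codon left out.

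The stretch around the active site shows both the likeness within the cluster and the distance of Hsd3b7. Below are 63 coding bases of each member, all from 1 exon, read from GENCODE M21 transcripts, 5′ to 3′. Capitals mark the codons of the tyrosine and the lysine of the catalytic motif that short-chain dehydrogenases share, which are codons 155 and 159 in the cluster members and 159 and 163 in Hsd3b7.
Hsd3b1: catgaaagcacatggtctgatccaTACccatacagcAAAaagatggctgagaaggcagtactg
Hsd3b2: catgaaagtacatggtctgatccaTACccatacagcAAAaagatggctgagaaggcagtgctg
Hsd3b3: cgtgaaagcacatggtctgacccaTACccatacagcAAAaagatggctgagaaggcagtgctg
Hsd3b4: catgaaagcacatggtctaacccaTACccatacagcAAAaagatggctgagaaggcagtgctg
Hsd3b5: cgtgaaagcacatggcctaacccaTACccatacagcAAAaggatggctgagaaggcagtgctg
Hsd3b6: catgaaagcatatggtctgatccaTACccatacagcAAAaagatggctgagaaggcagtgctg
Hsd3b7: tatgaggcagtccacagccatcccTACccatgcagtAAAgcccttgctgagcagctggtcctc
These stretches lie at chr3:98853173-98853235 in Hsd3b1, chr3:98712127-98712189 in Hsd3b2, chr3:98742505-98742567 in Hsd3b3, chr3:98500077-98500139 in Hsd3b4, chr3:98619628-98619690 in Hsd3b5, chr3:98806481-98806543 in Hsd3b6 and chr7:127802033-127802095 in Hsd3b7. Against Hsd3b1, 2 of the 63 bases differ in Hsd3b2 and in Hsd3b6, 3 in Hsd3b3 and in Hsd3b4, 6 in Hsd3b5 and 29 in Hsd3b7. Both catalytic codons are written with the same letters in all 7 members.

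Over the whole coding sequence the 15 pairs within the cluster were 79.5% to 95.2% identical, with a median of 82.7%. The most alike were Hsd3b4 with Hsd3b5 at 95.2% and Hsd3b2 with Hsd3b3 at 95.1%. Hsd3b7 shared only 50.1% to 51.4% of aligned bases with the other 6. Hsd3b1 and Hsd3b6, the 2 cluster members with a clear level in these glands, were 90.0% identical, with 1007 of 1119 bases the same. The stretch below, coding bases 250 to 321 counted from the A of the start codon, is the longest run that both have in full. It holds 72 bases and crosses the border of the last 2 exons. By the reference sequence a read wholly inside it cannot tell the 2 genes apart. Their annotated transcripts share no stretch of 75 bases.
Hsd3b1 and Hsd3b6: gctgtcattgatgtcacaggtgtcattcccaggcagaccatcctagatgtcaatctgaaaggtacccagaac
The 63 coding bases in which the 2 genes are least alike, coding bases 99 to 161, cross the border of the first pair of coding exons. Capitals mark the 16 bases that differ, and by the reference sequence a read over them does tell the genes apart. The alleles of these F1 mice were not examined.
Hsd3b1: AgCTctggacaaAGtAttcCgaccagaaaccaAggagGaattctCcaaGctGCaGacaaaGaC
Hsd3b6: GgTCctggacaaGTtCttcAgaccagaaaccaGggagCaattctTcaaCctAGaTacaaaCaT

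The libraries were of like depth. Expected counts, which are estimated reads per gene and need not be whole, summed to 35452819 over genes in animal 1 and 34879073 in animal 2. Of the markers of the tissue, all 5 of adrenal cortex, all 5 of zona glomerulosa and all 5 of chromaffin cells of the medulla were detected, that is, had at least 1 TPM in both libraries (TPM is a level per transcript length, scaled to a fixed total per library). Ovary markers summed to 0.270 and 2.27 TPM in animals 1 and 2, with Fshr listed at 0 in both. The ovary marker Gdf9 was called 6.94-fold higher in animal 2, from 13 and 88 expected counts. Kidney tubule markers summed to 1.45 and 1.74 TPM, with Slc12a1 listed at 0 in both. Hepatocyte markers summed to 99.5 and 103 TPM, of which Cyp2e1, a cytochrome P450 that is not limited to liver, gave 81.80 and 95.57 TPM. The hepatocyte marker Alb, albumin, was called 3.37-fold higher in animal 1, at 11.25 and 3.45 TPM, and Apoc3 was 1.72-fold higher there. Adipocyte markers summed to 3072 and 1938 TPM and macrophage markers to 94.9 and 112 TPM. Of the adipocyte markers, Ucp1 was called 2.58-fold higher in animal 1. Sums of 2 further lists were far apart between the libraries. Markers of the X-zone, an inner cortical zone of the mouse, summed to 118 and 1047 TPM in animals 1 and 2, and those of skeletal muscle to 154 and 0.340 TPM.

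Transcripts of the family were almost all Hsd3b1. The sum over the 7 members was 3899 TPM in animal 1 and 5154 in animal 2, a mean of 4527 ± 888 (SD, n = 2), and Hsd3b1 made up 99.10% and 99.30% of that sum. The other 6 together gave 35.2 and 36.0 TPM. Detection at 1 TPM or more in both libraries was reached by Hsd3b1, Hsd3b6 and Hsd3b7, or 3 of 7 members, where 22.6% of all genes reached it.

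Hsd3b1 (ENSMUSG00000027871.16) stood at 3863.77 TPM in animal 1 and 5118.32 TPM in animal 2, or 4491 ± 887 TPM (SD, n = 2). By mean TPM it ranked first of 21938 nuclear protein-coding genes and 19th of all genes. It was first in animal 1 and second in animal 2, where Star, the carrier of cholesterol into mitochondria, stood above it at 5373.69 TPM. The gene took 0.689% of all expected counts in animal 1 (95% Wilson interval 0.6860% to 0.6914%) and 0.851% in animal 2 (0.8478% to 0.8539%). These intervals, like the other counting limits given here, cover counting error only, because copies made by PCR cannot be told from separate molecules. Its printed TPM lay above the upper end of its own deposited interval in both libraries, which ran from 3781.32 to 3812.60 and from 5002.49 to 5040.50 TPM. The same was so for Star, Cyp11a1, Cyp21a1 and Cyp11b1, so it is not particular to Hsd3b1.

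Hsd3b6 (ENSMUSG00000027869.14, chr3:98805504-98814443) was the second member of the family, at 20.43 TPM in animal 1 and 23.74 TPM in animal 2, or 22.1 ± 2.34 TPM (SD, n = 2). Hsd3b7 (ENSMUSG00000042289.11) was next, at 14.67 and 12.19 TPM, or 13.4 ± 1.75 TPM. Their ranks by mean TPM were 2766 and 4487 of the nuclear protein-coding genes. Hsd3b6 was above Hsd3b7 in both animals, and the levels of the 2 genes did not overlap. The level of Hsd3b7 depends on how reads are split with Gm49388, a gene that overlaps it. Together Hsd3b7 and Gm49388 held 1223 and 857 expected counts in animals 1 and 2, below the 1291.91 and 1377.03 of Hsd3b6. In a second quantification, given below, they held 1432 and 1113, against 1353 and 1439 for Hsd3b6. There the order in animal 1 rests on the split. Gm49388 also overlaps the span of Setd1a, a gene upstream, so not all of its counts need belong to Hsd3b7.

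Within each library, Hsd3b1 exceeded Hsd3b6 189-fold in animal 1 and 216-fold in animal 2, a mean log2 ratio of TPM of 7.66 ± 0.13 (SD, n = 2). Over Hsd3b7 the excess was 263-fold and 420-fold, or 8.38 ± 0.48. Hsd3b6 exceeded Hsd3b7 1.39-fold and 1.95-fold, or 0.72 ± 0.34. The order Hsd3b1, Hsd3b6, Hsd3b7 was the same in both animals, and each of the 3 ratios had its mean above its SD. With 2 libraries an exact sign-flip test cannot give a two-sided p below 0.5, so none was run.

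The remaining 4 members were at or near 0 in the gene table. Hsd3b2 (ENSMUSG00000063730.13, chr3:98709255-98724543) had 1.05 and 0.00 expected counts in animals 1 and 2. Hsd3b3 (ENSMUSG00000062410.14, chr3:98741523-98763127) had 1.06 and 1.00 counts. Hsd3b4 (ENSMUSG00000095143.5, chr3:98499071-98510514) had 0.00 and 2.18 counts. Hsd3b5 (ENSMUSG00000038092.6, chr3:98618634-98630252) had none in either library, which at 3 counts allows up to 0.0532 and 0.0583 TPM. None of the 4 was above 0.04 TPM in any library, so the genes known from liver and kidney were not detectable in the adrenal gland by this quantification.

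**Figure D1:**
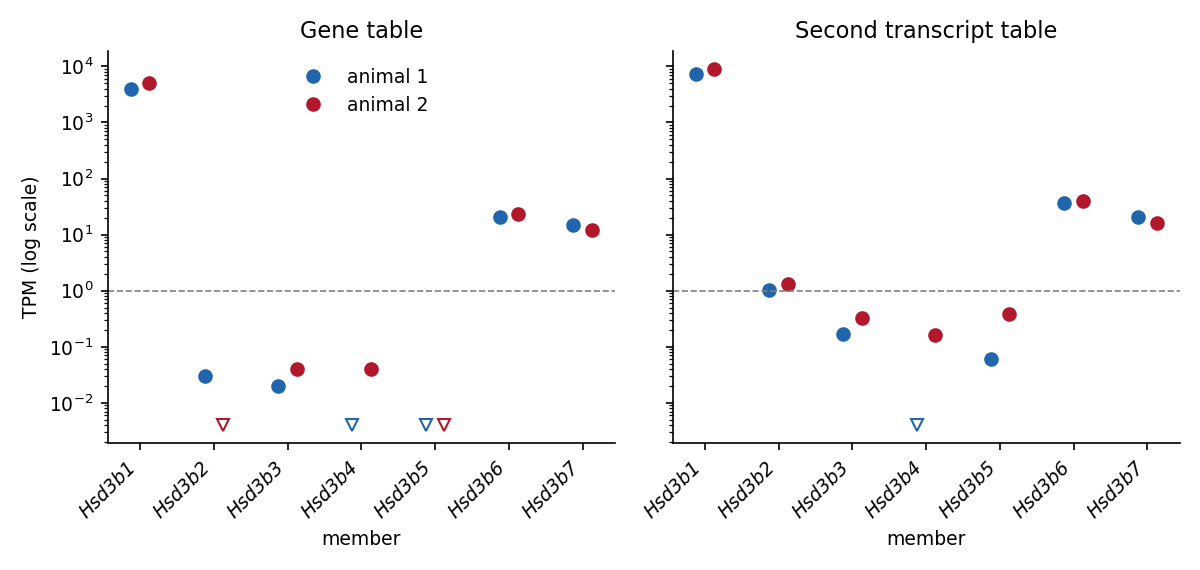
TPM of the 7 members in animal 1 (blue) and animal 2 (red) on a log axis, in the gene table (left) and, summed over transcripts, in the second transcript table (right); open triangles at the bottom mark values listed at 0.00, and the dashed line is the detection level of 1 TPM. Hsd3b1 lies at 3863.77 and 5118.32 TPM on the left, more than 100 times above Hsd3b6 and Hsd3b7, and Hsd3b2 crosses the line only on the right.

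A second transcript table, quantified another way from the same libraries, gave the same order of the detected members at higher levels. Hsd3b1 stood at 7333.02 and 9113.69 TPM, Hsd3b6 at 36.10 and 39.62 TPM, and Hsd3b7 at 20.61 and 15.81 TPM in animals 1 and 2. Most genes were higher in the second table, with a median log2 ratio of the second over the first table, 1 TPM added, of 0.79 in animal 1 and 0.71 in animal 2. After that shift was taken off, the second table differed from the first by 0.14 and 0.12 for Hsd3b1, by 0.01 and 0.00 for Hsd3b6, and by -0.32 and -0.36 for Hsd3b7. None of the 4 members with at least 1 TPM in either table was at least 2-fold apart in both libraries, where 18.0% of all 15653 such genes were, or 5.09% after the shift was taken off. Hsd3b2 missed this only through the 1 TPM added, at 0.99 and 1.23 on the log2 scale, and was 2-fold apart with 0.1 TPM added or in counts. By mean TPM Hsd3b1 ranked second of the nuclear protein-coding genes in the second table.

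Hsd3b2 was the member whose detection depended on the table. It had 89.6 and 114 estimated counts in the second table, or 1.05 and 1.34 TPM, against 0.03 and 0.00 TPM in the first. All of these counts were on the transcript Hsd3b2-202, whose last exon runs for 3063 bases (chr3:98709255-98712317) and is mostly untranslated. Of the 31-base words of Hsd3b2 transcripts, 36.3% also occur on the same strand in transcripts of another gene. Counted separately, 22.6% occur in another gene on the opposite strand, among them words of D10Wsu102e and Zfp488, which lie outside the family. How these shared words bear on the 89.6 and 114 counts was not tested. Hsd3b5 had 2.0 and 11.9 counts in the second table, Hsd3b3 4.36 and 6.10, and Hsd3b4 0.0563 and 5.11, which left all 3 at 0.39 TPM or below in both animals.

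How far reads can be assigned to 1 member depends on the sequence it shares. Of all 31-base words in the transcripts of Hsd3b1, 13.0% occur in another gene, 5.78% in Hsd3b6 and 3.89% in the pseudogene Gm12431. For Hsd3b6 the share was 29.0%, with 23.3% found in Hsd3b2, 21.3% in Hsd3b3 and 5.99% in Hsd3b1. The shares of Hsd3b3 and Hsd3b5 were 9.76% and 34.1%. These shares pool all transcripts of a gene. The non-coding transcript Hsd3b3-205, of 4766 bases, holds 4706 of the 6345 words of Hsd3b3, none of them in another gene. In the coding transcript Hsd3b3-201 only 57.7% of the words occur in no other gene. With words of 75 bases the pooled shares fell to 1.35% for Hsd3b1, 7.61% for Hsd3b6, 4.78% for Hsd3b3 and 11.7% for Hsd3b5. At that length no word of Hsd3b1 occurs in another member, and its 1.35% is found in Gm12431. Hsd3b6 shares its 75-base words with Hsd3b3 (6.83%) and Hsd3b2 (6.66%). Since Hsd3b1 holds 244169.98 and 296765.97 counts, 1% of them is more than all the counts of Hsd3b6. The level of Hsd3b6 is uncertain to the extent that shared reads were split between them. By the reference this concerns matches between Hsd3b1 and Hsd3b6 that are shorter than 75 bases.

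Hsd3b4 has no word of its own. All 1607 of its 31-base words, and all 1563 of its 75-base words, occur in Gm10681, an annotated protein-coding gene between Hsd3b4 and Hsd3b5 in the cluster (chr3:98552542-98588807). Their coding sequences are 100% identical over 1119 bases, and Gm4450, a neighbour outside the cluster, is 99.6% identical to both. In animal 2 the gene table gave Hsd3b4 and Gm10681 the same 2.18 counts, and in animal 1 it gave 0.00 and 6.22. The 2 loci cannot be told apart from these transcripts, so their values are best read together. In the second table Hsd3b4 had 0.0563 and 5.11 counts and Gm10681 7.33 and 5.11.

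**Figure D2:**
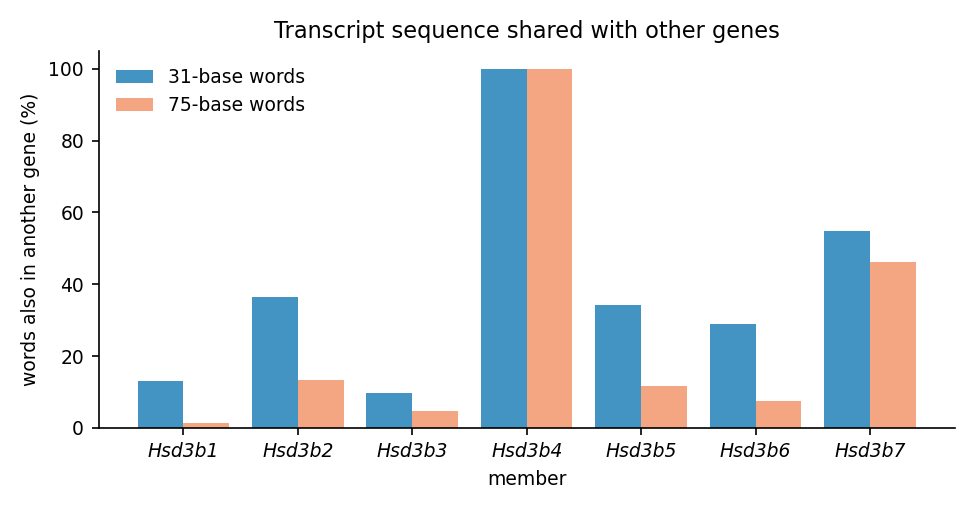
Share of the distinct 31-base words (blue) and 75-base words (orange) of each member's annotated transcripts that also occur, on the same strand, in transcripts of another gene. Hsd3b4 is at 100% for both lengths, Hsd3b7 at 54.8% and 46.1%, and Hsd3b1 at 13.0% and 1.35%. Words are pooled over the transcripts of a gene. The coding transcripts Hsd3b3-201 and Hsd3b7-201 share larger parts of their 31-base words than the bars of their genes.

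Hsd3b7 shares no 31-base word with the other members, but 54.8% of its words occur in Gm49388, an annotated read-through transcript unit that starts upstream at chr7:127785608 and continues through most exons of Hsd3b7. That share pools all 13 transcripts of the gene. In Hsd3b7-201, its main coding transcript, only 109 of 1798 words (6.06%) occur in no other gene. A further gene on the opposite strand, 9430064I24Rik, holds 52.4% of the pooled words of Hsd3b7. In the first table Gm49388 had 309.98 and 128.54 counts, and Hsd3b7 took 74.7% and 85.0% of the counts of the pair in animals 1 and 2. In the second table Gm49388 had 674 and 520 counts, and the share of Hsd3b7 was 52.9% and 53.3%. The share of Hsd3b7 in the counts of this pair therefore differed by table, more than it differed between animals. The pair leaves out Setd1a, a gene on the same strand (chr7:127776670-127800122) whose span holds the start of Gm49388. Setd1a had 1438.16 and 2086.75 counts in the first table and 1472 and 2184 in the second. How reads were split between Gm49388 and Setd1a was not tested, so not all counts of Gm49388 need belong to Hsd3b7. The opposite-strand gene had 6.00 and 2.00 counts in the first table.

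Both transcripts of Hsd3b1 had counts in both libraries. Hsd3b1-201, with 4 exons, and Hsd3b1-202, with 5, have the same coding sequence. They differ by a 190-base untranslated exon before the start codon (chr3:98858152-98858341), which only Hsd3b1-202 has, and by 2 bases at the 3′ end. In the first transcript table Hsd3b1-201 stood at 2619.81 and 3259.94 TPM and Hsd3b1-202 at 1243.95 and 1858.38 TPM, so the shorter form took 67.8% and 63.7% of the gene. In the second table the order was the other way round, with Hsd3b1-201 at 2582.53 and 3334.39 TPM and Hsd3b1-202 at 4750.49 and 5779.30 TPM. Counts shift less than TPM between the tables, by a median log2 ratio over genes of 0.14 in animal 1 and 0.16 in animal 2. In counts, Hsd3b1-201 had 159263.95 and 180949.58 in the first table and 87677.50 and 112423.00 in the second. Hsd3b1-202 had 84906.03 and 115816.39 in the first table and 184479.00 and 222778.00 in the second. Counts were thus lower for one form and higher for the other in the second table, and the order of the 2 forms held in both animals within a table but not between tables. Of their 31-base words, 218 are private to Hsd3b1-202 and 26 to Hsd3b1-201, so few reads can be assigned to the shorter form alone.

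Hsd3b6 was read mainly as Hsd3b6-201, a transcript of 4 exons with a 262-base untranslated first exon (chr3:98814182-98814443). It took 71.0% and 76.4% of the gene in the first table, at 14.50 and 18.13 TPM, and Hsd3b6-202, which lacks that exon, 29.0% and 22.9%. In the second table Hsd3b6-201 had 36.10 and 37.25 TPM, and Hsd3b6-202 had 0.00 and 1.53 TPM. Hsd3b6-202 has no 31-base word of its own.

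Hsd3b7 has 13 annotated transcripts, of which 6 had counts above 0 in both libraries in the first table. The coding transcript Hsd3b7-201, with 7 exons, led at 11.47 and 8.48 TPM, or 78.2% and 69.6% of the gene. The 5 transcripts annotated as retaining an intron together had 1.43 and 3.00 TPM in animals 1 and 2, or 9.72% and 24.7% of the gene. In the second table they took 13.1% and 28.4%, so the share was higher in animal 2 in both tables. The largest of them was Hsd3b7-210, which keeps 2 introns of the 3′ part of the gene and had 0.95 and 1.65 TPM, while the gene as a whole was lower in animal 2.

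**Figure D3:**
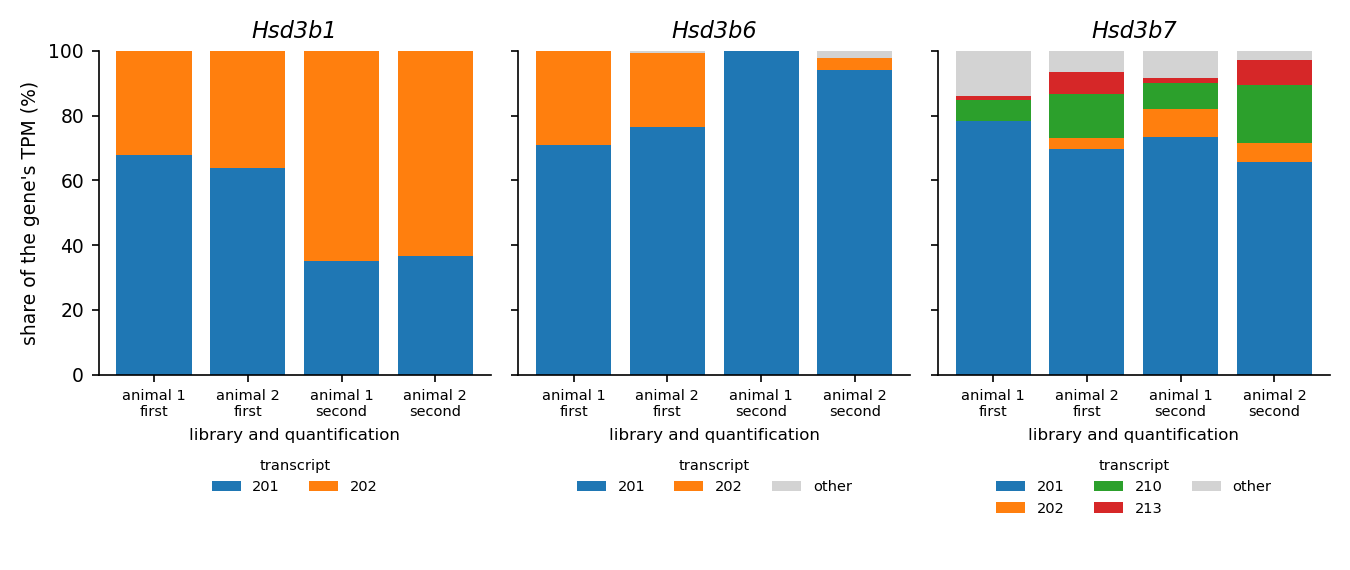
Share of each transcript in the TPM of Hsd3b1, Hsd3b6 and Hsd3b7, for animals 1 and 2 in the first and the second transcript table; transcripts under 5% in every bar are summed as other. For Hsd3b1 the 201 form takes 67.8% and 63.7% in the first table and the smaller part in the second, and for Hsd3b7 the 210 and 213 forms, which retain introns, are larger in animal 2.

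Between the animals the 3 detected members differed little. The log2 ratio of animal 2 over animal 1, from expected counts scaled with TMM, was 0.36 for Hsd3b1, or 1.29-fold higher in animal 2 (counting interval 0.36 to 0.37). Hsd3b6 was 1.13-fold higher in animal 2, at 0.17 (0.06 to 0.29), and Hsd3b7 1.18-fold higher in animal 1, at -0.24 (-0.38 to -0.10). None of the 3 was called at least 2-fold apart, where the rule called 3.46% of the 13569 genes that averaged 50 or more expected counts (1.71% higher in animal 2 and 1.75% higher in animal 1). Of the same genes, 28.9%, 58.6% and 46.0% lay further from 0 than Hsd3b1, Hsd3b6 and Hsd3b7. The other 4 members were under the count minimum and have no ratio.

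Scaling by the spike-ins moved the median of all genes from -0.01 to 0.21, and with it the members to 0.59, 0.40 and -0.02, so Hsd3b7 lay at -0.23 from the median under both scalings. With TMM, 232 of the genes called over the whole table had the higher value in animal 2 and 237 in animal 1, and with the spike-ins 393 and 152. In whole tissue, fewer cells of a type and less RNA per cell cannot be told apart. The marker sums of X-zone, skeletal muscle, adipocytes and ovary given above, and Alb, differed between the same 2 libraries. Their part in the members' differences was not tested.

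**Figure D4:**
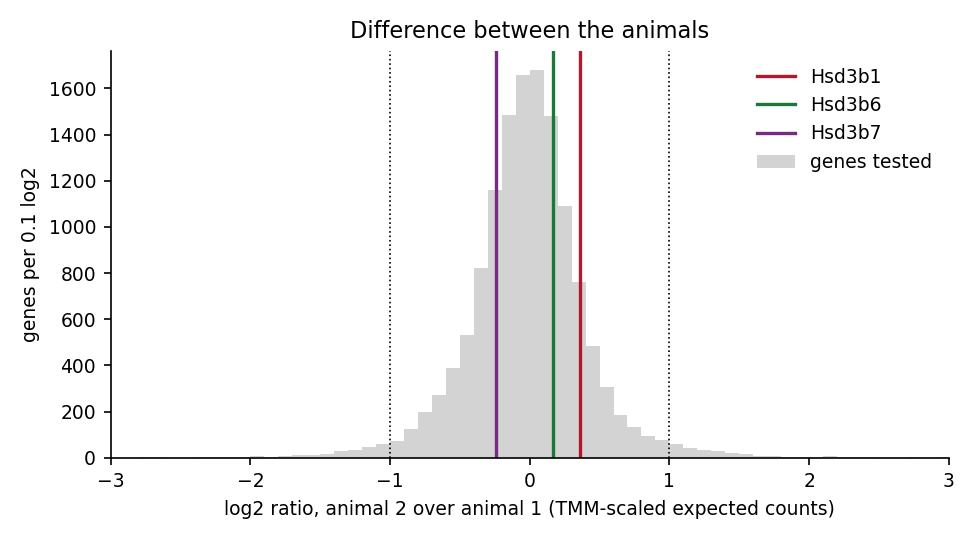
Histogram of the log2 ratio of animal 2 over animal 1 for the 13569 genes that averaged 50 or more expected counts, in bins of 0.1, drawn from -3 to 3; dotted lines mark a 2-fold difference. The coloured lines of Hsd3b1 at 0.36, Hsd3b6 at 0.17 and Hsd3b7 at -0.24 lie inside the bulk of the genes.

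Hsd3b1 works in a chain of enzymes, and its transcripts stood with those of its partners. StAR and the side-chain cleavage enzyme Cyp11a1 provide pregnenolone, and the 21-hydroxylase Cyp21a1 takes the product of Hsd3b1 onward. Hsd3b1 exceeded Cyp21a1 1.08-fold and 1.05-fold in TPM, a log2 ratio of 0.09 ± 0.03 (SD, n = 2), and this ratio was -0.15 in expected counts without a correction for length. Over Cyp11a1 it was 1.66-fold and 2.52-fold, or 1.03 ± 0.43, and over Cyp11b1, the last enzyme of corticosterone synthesis, 1.47-fold and 2.24-fold, or 0.86 ± 0.43. In expected counts, which are not corrected for length, the ratio was 0.72 ± 0.43 over Cyp11a1 and -0.05 ± 0.43 over Cyp11b1, at -0.36 in animal 1 and 0.25 in animal 2. Against Star the sign was not fixed, at 0.37 in animal 1 and -0.07 in animal 2.

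The aldosterone synthase Cyp11b2 marks the zone in which Hsd3b6 is known to act. It stood at 200.42 and 165.64 TPM, and Hsd3b6 was 9.81-fold and 6.98-fold below it, a log2 ratio of -3.05 ± 0.35 (SD, n = 2). Hsd3b6 was higher in animal 2 and Cyp11b2 higher in animal 1. The 5 zona glomerulosa markers summed to 405 and 344 TPM in animals 1 and 2.

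Of the 15 genes of the steroid synthesis list, 14 were detected. The exception was Cyp17a1, the 17-alpha-hydroxylase that the adrenal gland of adult mice is known to lack, at 0.10 and 0.64 TPM. The electron carriers of the P450 enzymes, Fdx1, Fdxr and Por, stood at 378.21 and 1004.06, at 404.10 and 405.43, and at 105.08 and 94.93 TPM. The cytochromes b5 Cyb5a and Cyb5b had 140.82 and 165.60 and 159.85 and 148.65 TPM. Of the regulators, the transcription factor Nr5a1 had 180.52 and 303.18 TPM, its partner Nr0b1 3.88 and 3.54, the ACTH receptor Mc2r 115.86 and 105.66, and its accessory protein Mrap 183.91 and 335.84. Fdx1 was the 1 gene called apart of the 14 tested, 2.71-fold higher in animal 2, and the list had a median log2 ratio of -0.15 beside -0.01 over all genes. Under spike-in scaling both medians moved alike, to 0.07 and 0.21, so the list lay at -0.14 from all genes under either scaling.

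**Figure D5:**
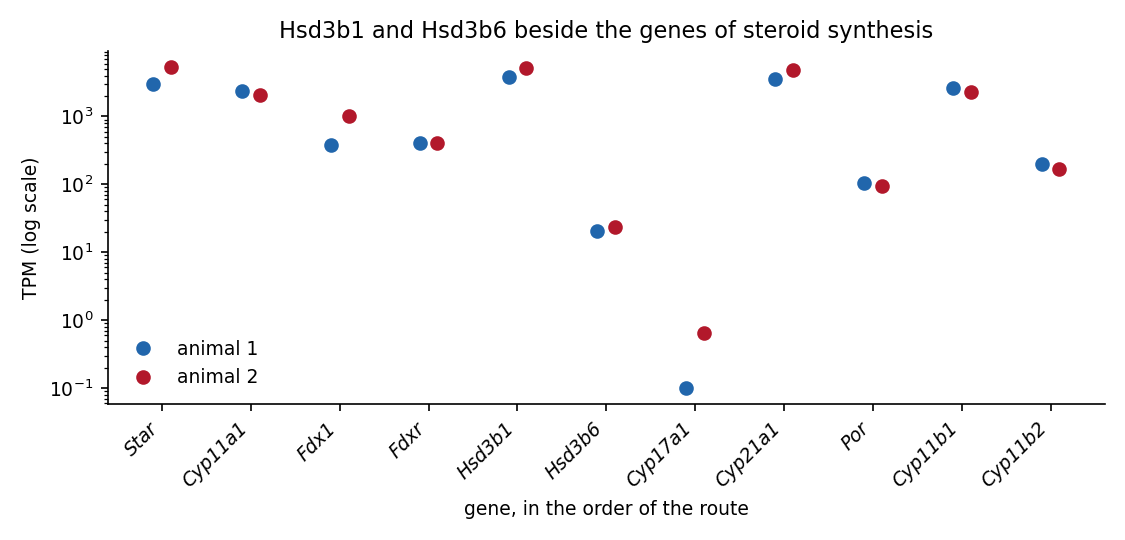
TPM on a log axis of Hsd3b1, Hsd3b6 and 9 genes of steroid synthesis in animals 1 (blue) and 2 (red), from cholesterol import at the left to aldosterone synthase at the right. Star, Cyp11a1, Hsd3b1, Cyp21a1 and Cyp11b1 lie between 2034.28 and 5373.69 TPM, Hsd3b6 near 20 TPM and Cyp17a1 below 1 TPM.

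Hsd3b7 follows the 7-alpha-hydroxylases in the routes to bile acids. Cyp7a1, which opens the main route in liver, was listed at 0.00 TPM in both animals. Cyp7b1, which hydroxylates oxysterols and other steroids, had 1.46 and 1.17 TPM, and Cyp27a1, the sterol 27-hydroxylase, 2.95 and 3.63 TPM. Both were below Hsd3b7 in each library. Akr1d1, the reductase of the double bond that the Hsd3b reaction makes, was far above it at 463.59 and 721.38 TPM.

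Of the 15 genes of the oxysterol and bile acid list, 7 were detected. The other 4 of these are enzymes and carriers of the peroxisome, with Scp2 at 143.78 and 101.27, Hsd17b4 at 51.91 and 47.38, Slc27a2 at 17.12 and 7.41, and Amacr at 8.01 and 5.14 TPM. Acox2 and Baat, which act late in the bile acid route, were printed under 0.1 TPM in both animals. The deposited intervals of Acox2 lay above its printed values, from 0.21 to 0.81 and from 0.18 to 0.78 TPM, and in the second table Acox2 had 0.25 and 0.09 and Baat 0.07 and 0.20 TPM. Slc27a2 was the 1 gene called apart of the 8 tested, 2.56-fold higher in animal 1, the direction of Alb above, and the list median was -0.28 beside -0.01 over all genes. Of the 8, 6 were higher in animal 1 with TMM scaling and 4 with spike-in scaling.

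The related dehydrogenases were few. Nsdhl, which acts on sterols in cholesterol synthesis, had 15.39 and 10.20 TPM, a level like that of Hsd3b7 and 1.56-fold higher in animal 1. Sdr42e1 had 0.56 and 0.50 TPM.

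Of the chromosome 3 neighbours, 4 reached 1 TPM in at least 1 library of the gene table. The flanking gene Gm43190 had 0.02 TPM there in both animals, but 1.62 and 1.55 TPM in the second table. Hao2, a hydroxyacid oxidase and the next annotated gene above Hsd3b1 on the same strand (chr3:98874521-98893239), had 68.62 and 100.77 TPM and was 0.51 higher in animal 2 on the log2 scale, the same direction as Hsd3b1 at 0.36. The span of the cluster touches 12 other annotated genes, 10 of them pseudogenes, each of which was under 1 TPM in at least 1 library. The pseudogenes Gm12431 and Gm12432, between Hsd3b6 and Hsd3b1, had 1.49 and 0.41 and 2.37 and 0.97 TPM, from 8 or fewer counts each, and no counts in the second table. Zfp697, on the opposite strand, had 1.61 and 1.16 TPM, and its exons overlap those of Hsd3b2 and Hsd3b3. Its log2 ratio was -0.24, the direction opposite to that of Hsd3b1 and Hao2.

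Levels of Hsd3b1 in the 2 libraries were most like those of 4 mitochondrially encoded genes and of Cyp21a1. By Euclidean distance in log2(TPM + 1) over the 2 libraries, the 5 nearest protein-coding genes were mt-Nd4l at 0.05, Cyp21a1 at 0.13, mt-Nd4 at 0.14, mt-Nd3 at 0.15 and mt-Nd2 at 0.17. The 5 nearest to Hsd3b6 were Ubxn6, Ppp1r2, Hspg2, Map4 and Sirt2, and to Hsd3b7 Cpped1, St3gal3, Mrpl46, Cd320 and Enpp2. A distance over 2 libraries separates few genes at such levels, since 477 genes lay within 0.25 of Hsd3b6 and 392 within 0.25 of Hsd3b7, against 5 for Hsd3b1.

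The 250 bases before the annotated starts were searched for 5 motifs on both strands, in the RefSeq windows of GRCm38.p6, which hold 9 starts of the 7 members. For Hsd3b5 the RefSeq window (chr3:98645535-98645784) lies well upstream of the gene span given above, so the start of that span was not searched. AAGGTCA, the letters bound by the Nr5a1 protein, was in none of the 9, and 4.08% of all 32851 windows hold it. AAAGGTCA, which contains it, was likewise in none (1.34% of all), nor were TATAAA (12.4%) and TGACGTCA (1.55%). GATAAG was in both windows of Hsd3b3 and in 6.55% of all. These windows of Hsd3b3 hold nearly the same letters, with the match 242 and 241 bases before the start, so they do not count as separate matches. The windows of Hsd3b4 overlap each other. These are letter matches in short windows and say nothing of binding.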

How the data were processed

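The 2 libraries are total RNA-seq of adrenal gland. Per the labels' protocols the library kit keeps strand. The gene table and first transcript table hold, per the file headers, expected counts, TPM, interval bounds of TPM (a signal whose level is not given) and the percent of each isoform, as deposited by the authors. A second transcript table, also deposited by the authors, gives estimated counts and TPM, which were summed by gene. The deposited descriptions name mm10 and GENCODE M21. For aligner and quantifier, names and versions were not given in the sources used here.

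Members were found by symbol. The members, lists and tests were chosen with earlier results of these data known. The genes named are all members, the steroid synthesis and related dehydrogenase lists (Hsd3b8, Hsd3b9 and Sdr42e2 have no row under those symbols), oxysterol genes with at least 1 TPM or under 0.1 TPM in both libraries, neighbours with at least 1 TPM, and the 5 nearest genes by distance. Expected counts were rounded and scaled with TMM (edgeR 4.0.16, R 4.3.3), and 0.5 was added before log2. A gene was called apart at 2-fold with a mean count of at least 50 and deposited intervals that do not overlap. Without the condition on intervals, the rule was run on simulated counts with 200 genes changed 4-fold. It called all 200 and 2 unchanged genes. Because 4-fold is well above the cut, this does not show how the rule does near 2-fold. Counting intervals are binomial on rounded expected counts, by Wilson for shares and exact for ratios between the animals. They leave out how reads were assigned between genes. Coding sequences were aligned with MAFFT 7.526, since no protein table was used here. All sequences, identities and shared words are those of the reference, and variants of the F1 strain were not examined. Nothing says whether the animals were handled apart, so the SD may include technical spread. Alternatives were DESeq2 1.42.0 size factors, spike-in scaling, other filters and the second table.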

Additional observations from a re-analysis of the deposited data

How the results depend on the processing

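No member was called apart between the animals under any scaling, filter or added count that was run. Scaling of a library cannot change the order within it, and the order Hsd3b1, Hsd3b6, Hsd3b7 was the same in the second table and in counts not corrected for length. In counts of the second table, the place of Hsd3b7 below Hsd3b6 in animal 1 rests on the split of reads with Gm49388. Gm49388 in turn overlaps Setd1a. The 3 detected members stayed at 3 except in the second transcript table, which adds Hsd3b2 as the fourth. The family sum was 8281 TPM in the second table and 14944 TPM on a scale of nuclear protein-coding genes alone, against 4527, and 3899 to 5154 TPM when either animal was left out. Hsd3b1-202 took a mean of 34.2% of its gene in the first table and 64.1% in the second. The share of Hsd3b1 words in another gene was 13.0% at 31 bases and 1.35% at 75. Over all genes, 469 calls between the animals became 786 with no count filter and 733 with a minimum of 10. Between the tables, 2814 genes were 2-fold apart, which became 4288 with 0.1 TPM added, 797 after centring and 1177 in counts, and 3419 or 4122 in 1 animal alone. Of the members, 1 (Hsd3b2) was 2-fold apart between the tables with 0.1 TPM added, in counts, or in animal 2 alone, and 0 in animal 1 alone. At 0.1 TPM, 12 oxysterol genes in place of 7 and 2 related dehydrogenases in place of 1 were detected. Spike-in scaling moves all genes alike, with the median of all genes at 0.21 in place of -0.01, and put the median of the steroid synthesis list at 0.07 in place of -0.15. The causes of the differences between the tables were not tested. Centring, counts and leaving out an animal for tables, isoforms and lists were chosen after seeing the data. The ratio between the animals has no value with either left out. No paired analysis was possible because the series holds a single group. Hsd3b3 and Hsd3b5 rest on a few counts, Hsd3b4 on sequence it shares in full, and Hsd3b2 on the table used.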
